A study of Arvicanthis niloticus with 59 samples.

Results

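Potassium channel genes were followed across the organs of Arvicanthis niloticus, the Nile grass rat, a rodent that is active by day. Members were chosen by name alone: every gene whose symbol starts with Kcn, then one of the family letters a, b, c, d, e, f, g, h, j, k, m, n, q, s, t, u or v, then a digit. This gave 80 genes of the 18970 listed. The rule takes in pore-forming subunits and the small Kcne regulatory subunits. It leaves out Kcnma1, the pore of the large-conductance calcium-activated channel, and the beta subunits, which were followed separately as partners.

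The study measured polyadenylated RNA by RNA sequencing in 59 libraries of untreated, healthy tissue, with no treatment or genotype contrast. The labels give no strain, age or sex. They name 4 animals by code: T3F with 38 libraries, T173F with 12, T426 with 8 and T424 with 1. The libraries cover 48 anatomical sites, of which 38 have 1 library, so only 10 sites have libraries of 2 animals and could be tested. Gene symbols and identifiers in the tables are those of mouse genes.

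Potassium channels let potassium leave or enter cells and so set the resting membrane potential and end action potentials. Voltage-gated members (Kcna to Kcnd, Kcnh, Kcnq) open on depolarisation. The silent subunits (Kcnf, Kcng, Kcns, Kcnv) form no channel alone and change the behaviour of the voltage-gated channels they join. Inward rectifiers (Kcnj) hold the resting potential or carry potassium across epithelia and glia, the tandem-pore K2P channels (Kcnk) give background leak, and the Kcnn, Kcnt and Kcnu channels respond to calcium, sodium or pH. In neurons this family is known for its diversity, while in kidney, gut, stomach and eye its members recycle potassium for ion transport.

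Total expected counts ranged from 678819 to 41309569 per library, with a median of 16406604. Several libraries stand apart or go against their labels. The library labelled Liver T3F had summed hepatocyte markers of 626 TPM (a transcript level scaled for gene length and library total) and alveolar epithelium markers of 55673. The library labelled Lung T3F had hepatocyte markers of 92541, and Liver T426 had 69216. The library labelled Pancreas T173F had beta cell markers of 138, while Pancreas T3F had 20225. Germ-cell markers (12 of 13 listed were in the table) summed to 155321 in testis and also to 128970 in retina T426, 47161 in hippocampus T426, 23494 in femur T426 and 2086 in sciatic nerve T426. In the other 54 libraries they summed to between 1.91 and 333.6, with a median of 70.8. Sciatic nerve T426 also held acinar markers of 17230, and renal pelvis T426 hepatocyte markers of 13214. Counts at the tested sites are therefore also given from a strict set, without Liver T3F, Pancreas T173F and 5 libraries of T426 (femur, hippocampus, renal pelvis, retina, sciatic nerve). The strict set still keeps libraries with markers of other tissues. Muscle T3F held acinar markers of 4745 TPM and femur T3F alveolar epithelium markers of 3692 TPM. Sciatic nerve T3F held muscle-fibre markers of 8024 TPM and acinar markers of 1549 TPM.

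Few of these channels were detected in nearly every tissue. Of the 80 members, 44 reached 100 TPM in at least 1 library and 13 reached 500 TPM. Only 9 members were at 1 TPM or more in at least 50 of the 59 libraries, and 26 were at that level in 20 or fewer. The 13 libraries of brain, spinal cord and retina held 63 to 71 members at 1 TPM or more, with a median of 66. The other 46 libraries held 9 to 61, with a median of 35. Over all genes the medians were 14725 genes at 1 TPM or more in the neural libraries and 13698 in the others. The ranges of the member counts did not overlap, but those of the all-gene counts did, at 14433 to 15687 and 6703 to 15324. Summed levels did overlap: member TPM summed to between 1463 and 5067 (median 3333) in the neural libraries and to between 37.7 and 3499 (median 733) elsewhere. Counting only members with at least 10 expected counts gave 50 to 66 (median 64) in the neural libraries and 4 to 57 (median 31) elsewhere. With that floor the member ranges overlapped as well.

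The highest site of 35 members, 43.75%, was in the brain or spinal cord, against 15.8% of the 18946 genes at 1 TPM or more in some library. Retina was the highest site of 7 members, 8.75%, against 4.38% of these genes. Caudal cortex led with 14 members and cerebellum followed with 11. The tissue-specificity index tau runs from 0 for an even level to 1 for a single tissue. Taken on log2(TPM + 1) site means, it had a median of 0.753 over the members and 0.505 over the 18946 genes. Values in 1 library per site carry no replicate error, and in these bulk samples fewer cells of a type and less RNA per cell cannot be told apart.

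**Figure D1:**
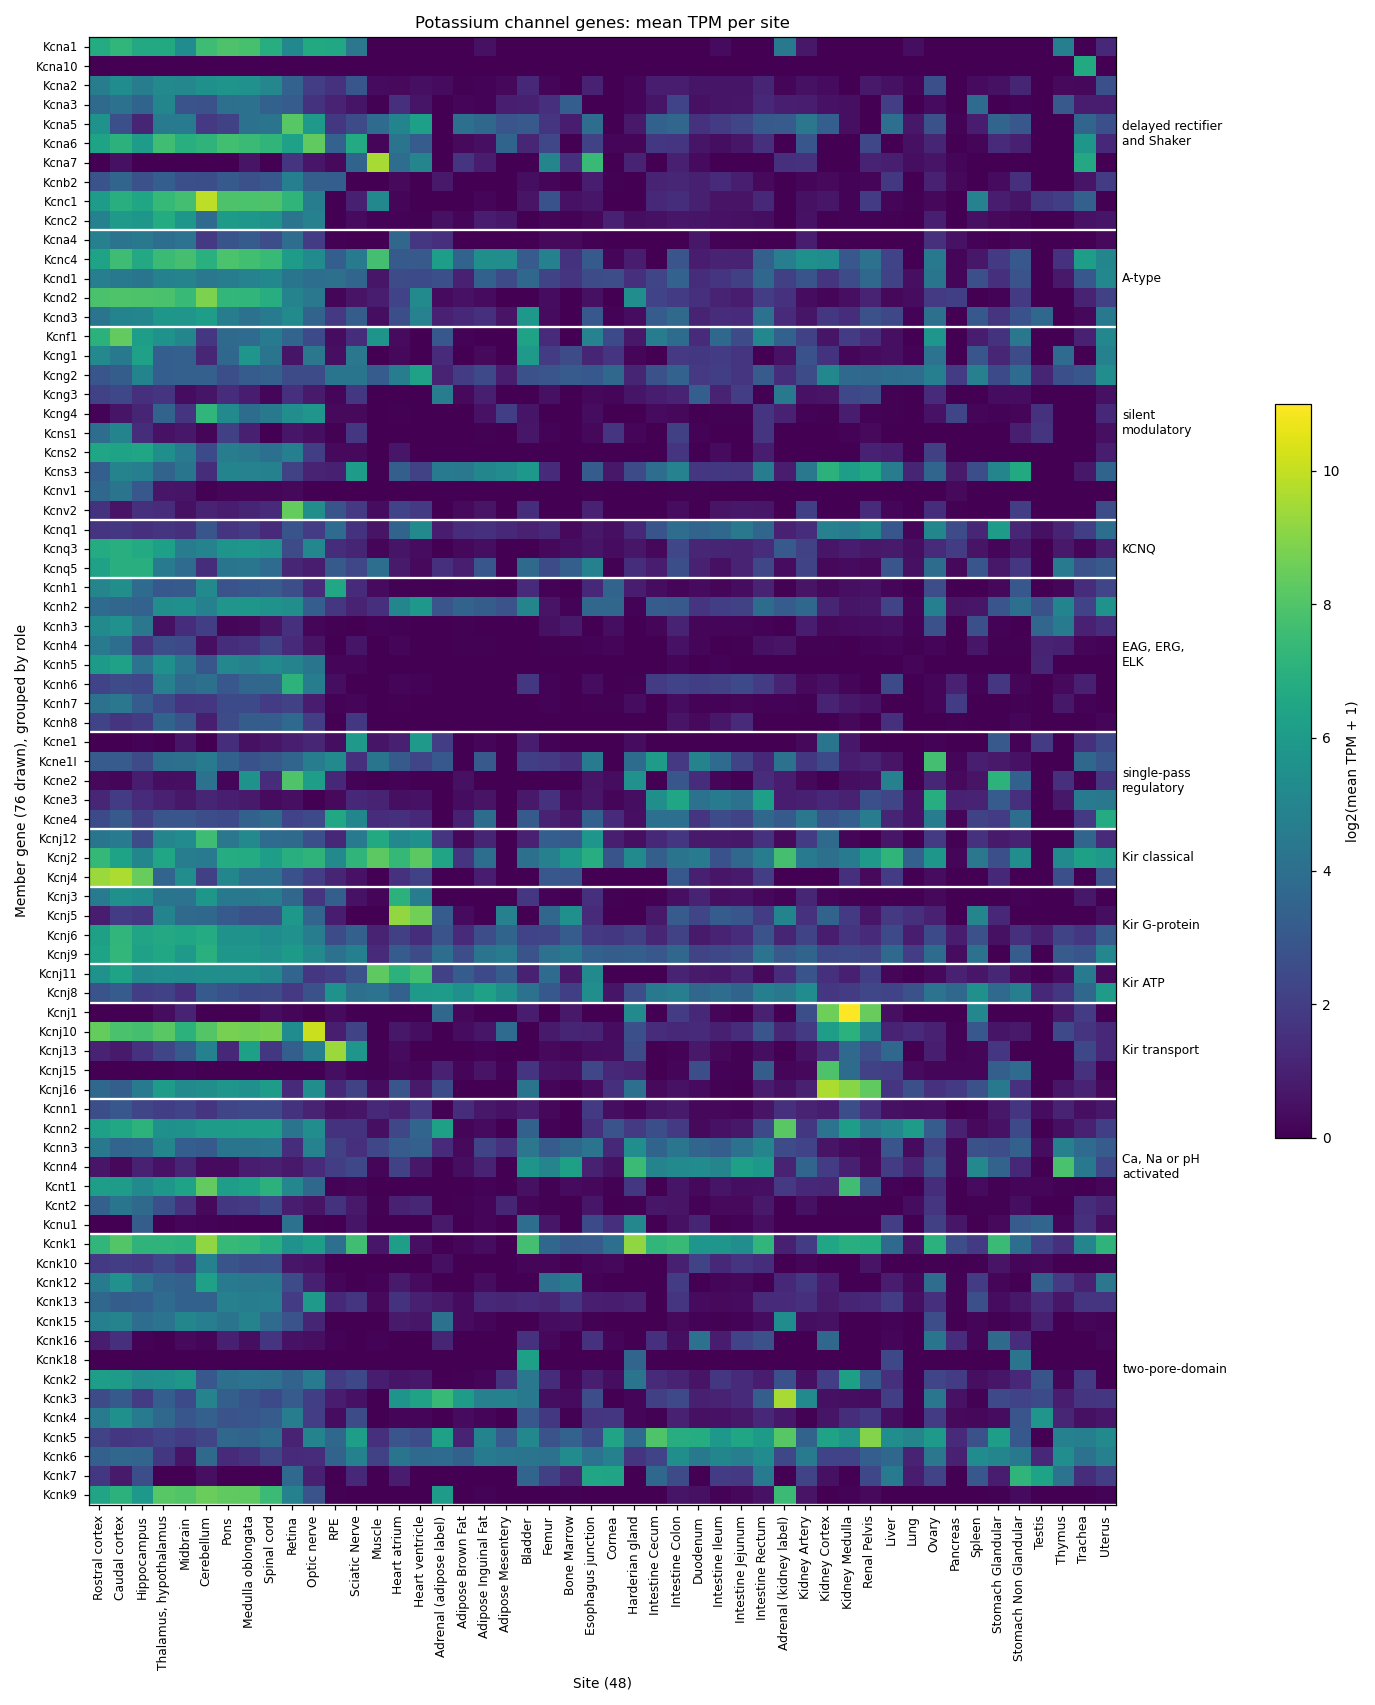
Heat map of the mean level, as log2(TPM + 1), of 76 of the 80 members (rows, grouped by role) at the 48 sites (columns). The brain, spinal cord and retina columns are filled across the voltage-gated groups, and some transport inward rectifiers are bright in kidney, optic nerve and pigment epithelium.

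The first test asked which members differed among the 10 sites with 2 animals: hippocampus, retina, sciatic nerve, muscle, femur, renal pelvis, duodenum, ovary, liver and pancreas. By edgeR's quasi-likelihood test with Benjamini-Hochberg adjustment over 17564 genes, 65 of the 78 members tested differed at an adjusted p below 0.05. That is 83.3%, against 41.4% of all genes. Kcna10 and Kcnk18 had too few counts to be tested. All 10 delayed rectifier and Shaker genes tested and all 8 of the Kcnh family differed. So did every inward rectifier: 3 classical, 4 G-protein-gated, 5 transport and 2 ATP-sensitive ones. The K2P channels (8 of 13) and the regulatory Kcne genes (3 of 5) differed at lower shares. The 13 members that missed the threshold included Kcnd1, Kcne1l, Kcne4, Kcng2, Kcng3, Kcnk1, Kcnk13, Kcnk3, Kcnk6, Kcnk7, Kcnn1 and Kcnu1, with adjusted p from 0.0846 (Kcnk13) to 0.504 (Kcnk7). With 2 libraries a site, these p-values rest on the spread within sites, pooled over all 10 sites (10 residual degrees of freedom). The pool includes the liver and pancreas pairs, each with a library that goes against its label. Over all genes the median absolute log2 ratio within these pairs was 1.92 in each, against 0.292 in hippocampus and 1.82 in femur. Libraries of different sites share animals, which the main fit does not model, so the p-values speak for these samples only.

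Each site was then set against the mean of the other 9, with a call needing an adjusted p below 0.05 and a change of at least 1 on the log2 scale. Fitted log2 fold changes of members at 0 in most other libraries depend on the prior count of the fit, so their TPM values are given first. Hippocampus and retina stood out by the number of members called higher, and muscle by the level of a few.

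**Figure D2:**
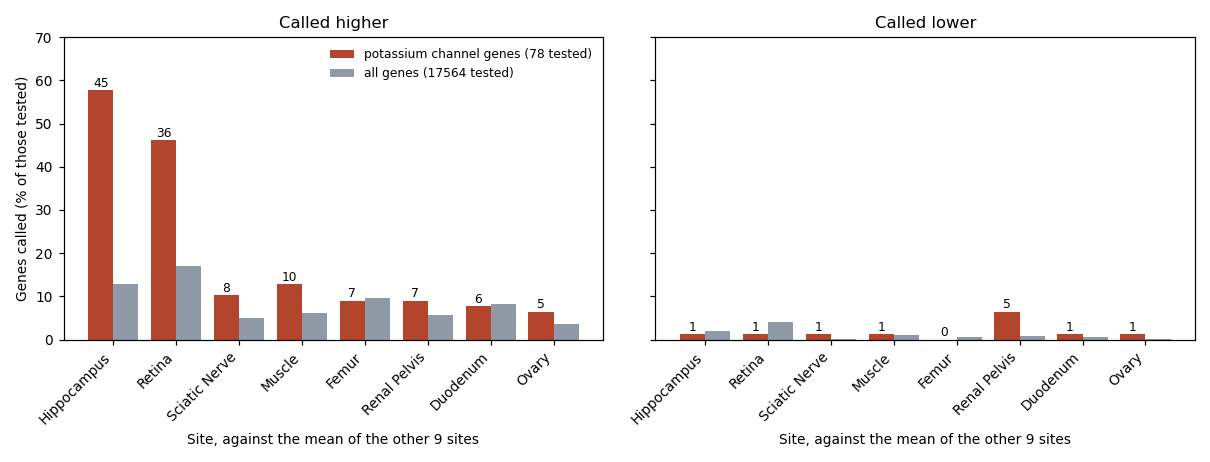
Bars give the percentage of the 78 tested members and of all 17564 tested genes called higher or lower at each of 8 sites against the mean of the other 9. Member bars exceed the all-gene bars most at hippocampus (57.7% against 12.9% higher) and retina (46.2% against 17%).

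In the hippocampus 45 of 78 members were higher, 57.7%, against 12.9% of all genes, and 1 was lower, against 2.06% of all genes. The median member log2 fold change was 2.83, and over all genes it was -0.01. In 24 of the 45, both hippocampus libraries were above every other library of the fit. Among the voltage-gated groups the higher calls were 8 of 10 delayed rectifier and Shaker genes, 5 of 6 A-type genes, 6 of 8 Kcnh genes and 3 of 5 Kcnq genes. The Kcnq calls included Kcnq3 and Kcnq5, which help to form the M-current that restrains repetitive firing. Silent subunits gave 5 of 10 (Kcnf1, Kcng1, Kcns1, Kcns2, Kcnv1), G-protein-gated rectifiers 3 of 4 and K2P channels 7 of 13. The calcium- and sodium-activated Kcnn1, Kcnn2, Kcnt1 and Kcnt2 (4 of 7 in their group) and the glial and epithelial rectifiers Kcnj10 and Kcnj16 (2 of 5) were also higher.

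Kcnj4, a classical strong inward rectifier of forebrain neurons, was at 324 TPM in hippocampus T3F and 362 TPM in T426. The next library of the fit was femur T3F at 7.94 TPM, and the median of the others was 0.203 TPM. Both hippocampus values thus lay far above every other library of the fit, with a log2 fold change of 8.36 ± 0.72 (adjusted p = 5.57e-06). Here and below, the value after ± is the absolute log2 fold change divided by the square root of its F statistic. It is an approximate standard error derived from the test, not one estimated by the fit. Kcnv1, a silent subunit, was at 7.22 and 6.47 TPM against a highest other value of 0.429 TPM (8.64 ± 1.12, adjusted p = 3.2e-04). Kcnk9, an acid-sensitive K2P leak channel, was at 72.7 and 40.6 TPM and overlapped retina T3F at 44.0 TPM. Its log2 fold change was 9.65 ± 0.88 (adjusted p = 9.8e-05), but DESeq2 did not call it (adjusted p = 0.212).

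The member called lower in hippocampus was Kcnk5, an alkaline-activated K2P channel of epithelia, at 3.20 and 2.05 TPM against a median of 23.8 TPM in the other libraries. Its log2 fold change was -3.56 ± 0.92 (adjusted p = 0.016). The call was lost without hippocampus T3F (adjusted p = 0.111) or T426 (adjusted p = 0.202). Of the 45 higher calls, 38 were kept in the strict set, which leaves 1 hippocampus library and assumes that it varies like the other sites. The part of the germ-cell RNA of hippocampus T426 in the calls was not tested.

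Within the brain of T3F, where each region has 1 library and no test was possible, members differed widely between regions. Of the 64 members at 10 TPM or more in at least 1 of 9 regions, 47 (73.4%) spanned more than 4-fold from lowest to highest, against 24.5% of 12155 genes at that level. The median ratio of highest to lowest region was 7.56 for members and 2.22 for all. Caudal cortex was the highest region of 17 members (26.6%, against 10.4% of all genes). Cerebellum was the highest of 15 (23.4% against 36.8%) and midbrain of 1 (1.56% against 18.0%).

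Several members of fast-firing neurons and of leak currents were highest in the cerebellum. Others were lowest there, among them Kcnc2 at 13.6 TPM and the K2P channel Kcnk2 at 6.98 TPM. Kcnc1, which lets neurons fire at high rates, was at 950 TPM in cerebellum and at 243 TPM in the pons, the next region. Kcnk1, a K2P leak channel, was at 582 TPM, Kcnd2, an A-type channel of dendrites, at 460 TPM, and Kcnk9 at 356 TPM in cerebellum. Kcnt1, the sodium-activated channel, was at 326.5 TPM, Kcnj12 at 193 TPM and the silent subunit Kcng4 at 149.5 TPM. Kcnk9 was nearly as high in pons (316 TPM) and medulla (308 TPM), whereas Kcnc1 was not.

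Cortex was highest for another set. Kcnj4 was at 807 TPM in caudal and 655 TPM in rostral cortex, above hippocampus T3F at 324 TPM and midbrain at 40.9 TPM. The silent subunit Kcnf1 was at 323 TPM in caudal and 134 TPM in rostral cortex. Kcnv1 was at 17.6 TPM in caudal cortex, 11.8 TPM in rostral cortex and 0.589 TPM in the library of thalamus and hypothalamus. Kcnh4, a slowly gating ELK channel, was at 22.7 TPM in rostral cortex and 14.8 TPM in caudal cortex, against 5.21 TPM in thalamus and hypothalamus.

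Kcna1, a Shaker channel placed beside the nodes of myelinated axons, was at 244 TPM in pons and 223 TPM in medulla, then 189 TPM in cerebellum, 149 TPM in caudal cortex and 113 TPM in spinal cord. Kcnj10, the inward rectifier by which glia take up potassium, was at 438 TPM in spinal cord, 433 TPM in pons and 402 TPM in medulla. Kcnc2, a relative of Kcnc1, was highest in thalamus and hypothalamus at 109 TPM, with pons at 63.0 TPM. Spinal cord, pons and medulla were thus within a narrow range for Kcnj10.

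**Figure D3:**
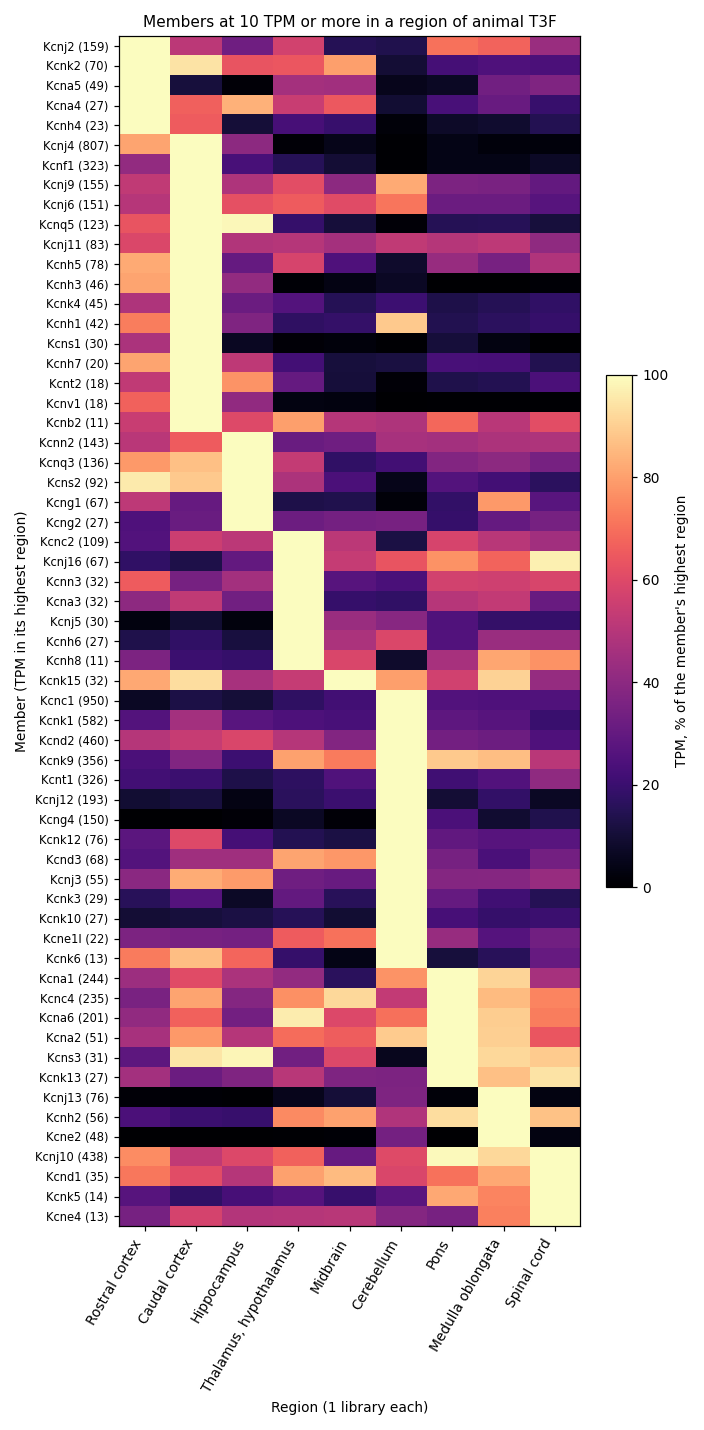
Level of 60 of the 64 members (rows) in 9 brain and spinal cord regions of animal T3F (columns), each as a percentage of that member's highest region. Blocks of high values lie in caudal cortex (15 members drawn) and cerebellum (14), with 1 library per region and no error.

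In the retina 36 of 78 members were higher, 46.2%, against 17% of all genes, and 1 was lower, against 4.12% of all genes. The median member log2 fold change was 2.72, against 0.14 over all genes. Calls covered 9 of 10 delayed rectifier and Shaker genes, 7 of 8 Kcnh genes, all 4 G-protein-gated rectifiers and 4 of 6 A-type genes. Of the silent subunits 3 of 10 were called (Kcng4, Kcns2, Kcnv2), and of the 5 Kcnq genes 1 was. Both retina values were above every other library of the fit for 9 of the 36 members.

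Kcnv2, the silent subunit of photoreceptors, was at 462 TPM in the left retina of T3F, 597 TPM in the right and 150.5 TPM in T426. No other library of the fit passed 3.45 TPM, so the groups were far apart (9.08 ± 0.70, adjusted p = 2.77e-06).

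Kcnh6, an ERG channel, was at 204 and 207 TPM in the T3F retinas and 71.3 TPM in T426, with no other library of the fit above 9.14 TPM (8.97 ± 0.91, adjusted p = 4.36e-05). Kcnh5, an EAG channel, was at 38.7, 42.8 and 17.7 TPM and overlapped hippocampus T3F at 23.6 TPM. It was called by edgeR (8.99 ± 0.90, adjusted p = 4.58e-04) but not by DESeq2 (adjusted p = 0.236). Kcne2, a regulatory subunit best known in stomach and choroid plexus, was at 371, 370 and 137 TPM in retina, above glandular stomach at 135.7 TPM.

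Kcnk5 was the member called lower, at 1.02, 1.22 and 1.04 TPM (-4.96 ± 1.03, adjusted p = 0.00369). Retina T426 was below T3F in general: the median log2 ratio of T426 to T3F was -1.58 over members and -1.05 over all genes. Germ-cell markers summed to 128970 TPM in that library, and their part in the lower values was not tested. In the strict set, without it, 32 of the 36 higher calls were kept.

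Retina against hippocampus asked how 2 neural tissues of the same animals differ. It gave 1 higher call, 1.28% of members against 0.29% of all genes, and 0 lower calls, against 0.114% of all genes. At an unadjusted p below 0.05 edgeR gave 7 higher and 8 lower. DESeq2 called 3 higher and 4 lower, and limma on log2(TPM + 1) called 5 and 7. The call was Kcna5, a delayed rectifier best known in atrium and vessels. It was at 459, 462 and 105 TPM in retina and at 0.709 and 1.66 TPM in hippocampus, with no overlap (8.02 ± 1.51, adjusted p = 0.0385). With animal as a block 2 members were called. The count was 0 without hippocampus T3F, hippocampus T426 or retina T426, and also without any 1 of the duodenum, femur, muscle, renal pelvis or sciatic nerve libraries. In these 13 fits the adjusted p of Kcna5 ran from 0.0544 to 0.742, and in the strict set it was 0.0889. Without Pancreas T3F or Pancreas T173F the count was 2.

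The other eye tissues, with 1 library each, held other members. In the pigment epithelium Kcnj13, the inward rectifier of its apical membrane, was at 650 TPM, the highest value of that gene, with sciatic nerve T426 next at 79.8 TPM. Kcne4 was at 95.6 TPM, Kcna1 at 93.5 TPM and Kcnh1, an EAG channel, at 92.5 TPM. In the optic nerve Kcnj10 reached 1103 TPM, its highest value, Kcna6, an axonal Shaker channel, 318 TPM and Kcnk13, a K2P channel, 59.0 TPM.

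The optic nerve library also held Kcne2 at 68.7 TPM and Kcnv2 at 41.8 TPM. Photoreceptor markers summed to 4676 TPM in it, against 29950, 30699 and 11312 TPM in the retinas, and their part in these values was not tested. In the Harderian gland, a lipid-secreting gland behind the eye, Kcnk1 was at 577 TPM and Kcnn4, a calcium-activated channel of secretory and blood cells, at 178 TPM. In the cornea Kcnk7 was at 85.4 TPM and Kcnk5 at 83.9 TPM.

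In the sciatic nerve 8 of 78 members were higher, 10.3% against 4.94% of all genes, and 1 was lower, against 0.125%. Kcne1, the regulatory subunit of the slow cardiac current, was at 67.3 TPM in T3F and 49.2 TPM in T426. No other library of the fit was above 1.77 TPM, so the groups did not overlap (8.64 ± 0.97, adjusted p = 1.82e-04). Over all libraries only the heart ventricle, at 60.5 TPM, fell among these values. Kcnq1, the pore that Kcne1 modulates, had its highest values elsewhere, in glandular stomach, ovary T173F and ventricle.

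Kcna6 was at 149 and 59.5 TPM in sciatic nerve and overlapped other sites (6.22 ± 0.85, adjusted p = 7.09e-04). Kcna1 was at 19.1 and 19.9 TPM, below hippocampus but above most libraries, where its median was 0 (5.84 ± 0.94, adjusted p = 0.0122). The Kcna1 call was lost without sciatic nerve T3F (adjusted p = 0.151) or T426 (0.07), in the strict set (0.0783) and with DESeq2 (0.623). Kcnk15 was at 0 in both nerve libraries (adjusted p = 0.0362), where the median of the other libraries was 0.136 TPM. Its call was lost on leaving out any of 14 single libraries, with adjusted p up to 1. Schwann cell markers summed to 122932 TPM in T3F and 25158 TPM in T426, beside the acinar and germ-cell markers of T426 given above, whose part in the calls was not tested. Of the 8 higher calls 5 were kept in the strict set. The count of 9 called in both directions was 3 without sciatic nerve T3F and 4 without T426.

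Skeletal muscle had few members, at high levels. There 10 of 78 were higher, 12.8% against 6.19% of all genes, and 1 was lower, 1.28% against 0.991%. The median member log2 fold change was -2.23, against -0.46 over all genes. Kcna7, a Shaker channel of muscle, was at 701 TPM in T3F and 828 TPM in T426. Femur T3F was next in the fit at 61.0 TPM and the median of the others was 0.330 TPM (9.98 ± 0.84, adjusted p = 2.31e-06). Outside the fit Kcna7 was at 169 TPM in the oesophageal junction and 98.9 TPM in trachea, where muscle-fibre markers summed to 30690 and 15721 TPM.

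Kcnj11, the pore of the ATP-sensitive channel, was at 281 and 337 TPM in muscle, with a highest other value of 40.7 TPM (7.47 ± 0.61, adjusted p = 9.78e-07). Its sulfonylurea-receptor partner Abcc9 was at 58.9 and 65.8 TPM and was also called higher, while Abcc8, the receptor of beta cells, was at 1.58 and 2.91 TPM. Kcnj12, a classical inward rectifier, was at 76.9 and 124 TPM against at most 27.1 TPM elsewhere in the fit (6.54 ± 0.64, adjusted p = 1.04e-05). Its relative Kcnj2 was at 215 and 390 TPM and the A-type Kcnc4 at 263 and 152.5 TPM, and both were also called higher. Kcns3, a silent subunit, was lower at 0.114 and 0 TPM against a median of 7.70 TPM (-5.57 ± 1.33, adjusted p = 0.0179), a call lost without muscle T3F (0.259) or T426 (0.184). All 10 higher calls were kept in the strict set. The count of 11 was 5 without muscle T3F and 6 without T426.

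The heart was sampled once at each of 2 sites, the right atrium of T3F and the right ventricle of T173F, so site and animal cannot be told apart. Kcnj5, a subunit of the acetylcholine-activated channel that slows the heart, was at 590 TPM in atrium and 403 TPM in ventricle. Its partner Kcnj3 was at 133 TPM in atrium and 24.0 TPM in ventricle. Kcnj2 was at 159 and 301 TPM and Kcnj11 at 133 and 205 TPM.

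The repolarising voltage-gated members were higher in the ventricle library. Kcnq1 was at 10.7 TPM in atrium and 36.6 TPM in ventricle, and its regulator Kcne1 at 0.969 and 60.5 TPM. Kcnh2, the ERG channel of fast repolarisation, was at 32.3 and 57.2 TPM and Kcna5 at 30.5 and 73.4 TPM. The transient outward channels Kcnd2 and Kcnd3 were at 3.66 and 5.31 TPM in atrium and at 35.8 and 28.8 TPM in ventricle. Their partner Kcnip2 was at 17.4 and 551 TPM, while Kcna4 ran the other way, at 11.5 and 2.35 TPM.

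**Figure D4:**
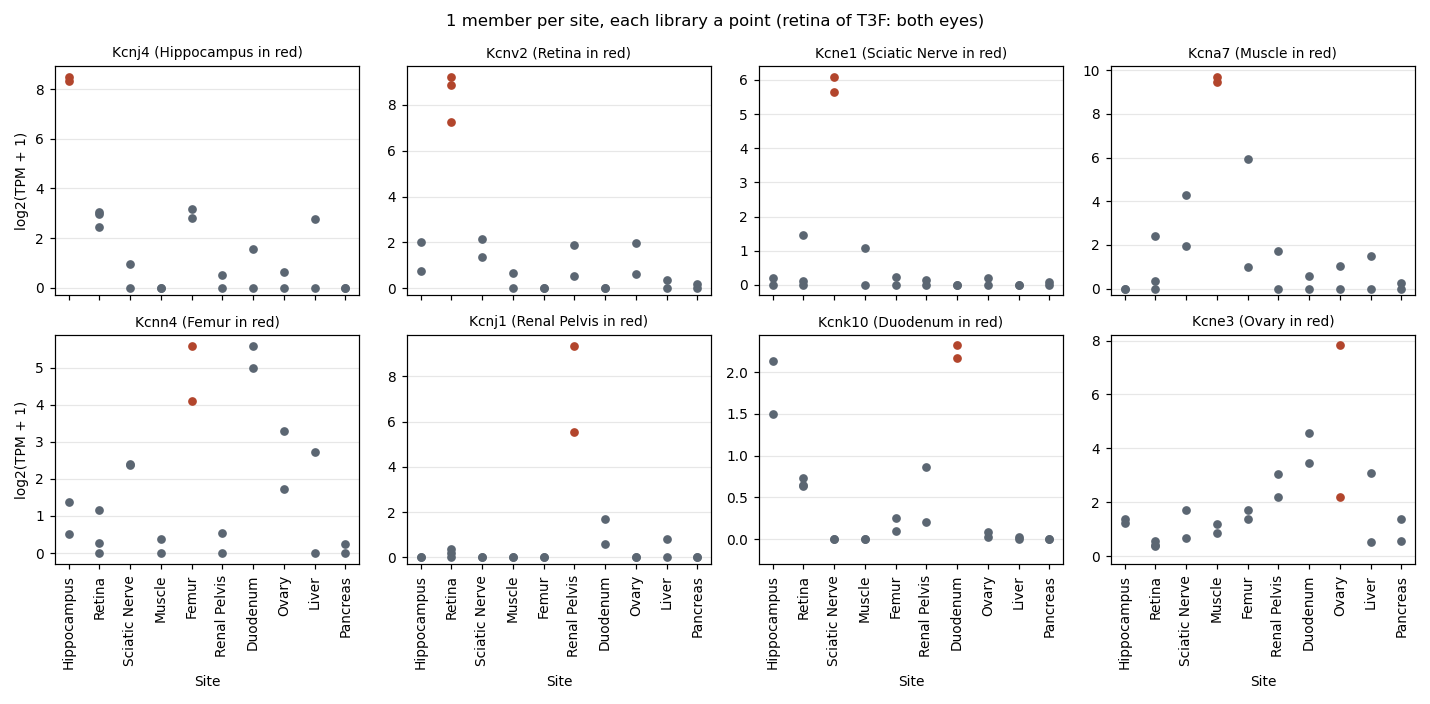
Level of 8 members, as log2(TPM + 1), at the 10 sites of the fit, 1 point per library, with the site named in each panel title in red. Kcnj4, Kcnv2, Kcne1, Kcna7, Kcnj1 and Kcnk10 have all points of that site above every other library, while Kcnn4 overlaps duodenum and the ovary points of Kcne3 lie apart, at 224 and 3.60 TPM.

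In the renal pelvis 7 of 78 members were higher, 8.97% against 5.73% of all genes, and 5 were lower, 6.41% against 0.826%. The number of lower calls depended on the method: DESeq2 called 5 higher and 18 lower, and limma 6 and 1. Markers of the urothelium that lines the pelvis summed to 33.4 TPM in T173F and 13.1 TPM in T426, against 11017 TPM in bladder. Markers of the thick limb and collecting duct summed to 9192 and 9247 TPM, against 17689 TPM in kidney medulla, and the part of tubule RNA in the calls was not tested. Kcnj1, the ROMK channel of salt-transporting tubules, was at 45.1 TPM in T173F and 645 TPM in T426. No other library of the fit was above 2.23 TPM (11.42 ± 0.94, adjusted p = 2.12e-04). DESeq2 did not call it (adjusted p = 0.191). In the kidney itself Kcnj1 was at 2101 TPM in medulla, the highest value of any member in the series, and at 380 TPM in cortex.

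Kcnj16, a basolateral inward rectifier of the tubule, was at 330 and 303 TPM in the pelvis, against at most 23.5 TPM at other sites of the fit (6.97 ± 0.61, adjusted p = 9.19e-06). It was at 796 TPM in cortex and 529 TPM in medulla. Its partner Kcnj10 was at 68.8 TPM in cortex, 130 TPM in medulla and 11.2 and 52.2 TPM in the pelvis. Kcnj15 was largely cortical, at 241 TPM, against 13.8 TPM in medulla and 4.33 and 2.65 TPM in pelvis.

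Kcnk5 was at 767 and 226 TPM in the pelvis, above duodenum T426 at 127.5 TPM (4.51 ± 0.49, adjusted p = 5.98e-05), and lower in cortex (80.7 TPM) and medulla (52.4 TPM). Kcnt1 was at 199 TPM in medulla, 1.24 TPM in cortex and 6.25 and 8.38 TPM in the pelvis, and Kcnk2, a mechanosensitive K2P channel, was at 75.4 TPM in medulla, its highest value. The 5 called lower were Kcnq5, Kcnn3, Kcnj3, Kcna5 and Kcnj12, the last at 0 in both libraries (adjusted p = 0.0141). Of these 5 calls 0 were kept in every fit that leaves out a library, against 3 of the 7 higher calls. The Kcnj12 call was lost without duodenum T3F or Pancreas T3F (adjusted p = 1 in each), renal pelvis T173F (0.271) or T426 (0.0981), and with limma (0.052). Of the 7 higher calls 6 were kept in the strict set. The count of 12 was 5 without renal pelvis T173F and 3 without T426.

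Among gut sites only the duodenum had libraries of 2 animals, and differences between gut sites were not tested. In the duodenum 6 of 78 were higher, 7.69% against 8.33% of all genes, a share close to that of all genes, and 1 was lower, 1.28% against 0.632%. Kcnk10, a stretch- and lipid-activated K2P channel, was at 3.48 and 4.00 TPM, just above the next library of the fit at 3.37 TPM (6.78 ± 0.80, adjusted p = 2.06e-04). Outside the fit Kcnk10 was at 27.2 TPM in cerebellum, its highest value. Kcnk16, an alkaline-activated K2P channel known from pancreatic islets, was at 18.6 and 14.1 TPM with a median of 0 elsewhere and ovary T173F above it (5.74 ± 1.13, adjusted p = 0.00542). Kcnj15 was at 8.51 and 1.98 TPM (5.13 ± 0.79, adjusted p = 6.9e-04).

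Without duodenum T3F the calls of Kcnk16 (adjusted p = 0.0889) and Kcnj15 (0.149) were lost and the count of 7 fell to 3, and DESeq2 did not call Kcnk16 (0.0937). Kcnk5 at 95.2 and 127.5 TPM, Kcnn4 at 30.9 and 47.2 TPM and the silent Kcng3 at 9.17 and 8.14 TPM were also called higher. Kcnc4 was lower, at 0.813 and 0.918 TPM (-4.39 ± 1.29, adjusted p = 0.0466), but that call was lost on leaving out any of 13 single libraries. All 6 higher calls were kept in the strict set.

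Kcnq1 stood beside different Kcne regulators at different sites. In the glandular stomach, where Kcnq1 with Kcne2 recycles potassium for acid secretion, Kcnq1 was at 66.8 TPM, its highest value, and Kcne2 at 135.7 TPM. Kcne2 was at 9.53 TPM in the non-glandular stomach. Kcne3, which holds Kcnq1 open in the crypts of the large bowel, was at 91.0 TPM in colon, 72.1 TPM in rectum and 43.4 TPM in cecum. It was at 22.9 and 9.89 TPM in duodenum, 16.4 TPM in jejunum and 22.4 TPM in ileum.

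Kcnq1 itself stayed between 6.18 and 20.4 TPM along the intestine. Kcnk5 was at 248 TPM in cecum and 115 TPM in colon, and Kcnn4 at 73.3 TPM in jejunum and 56.6 TPM in rectum. In the non-glandular stomach Kcnk7 was at 148 TPM, its highest value, and Kcns3 at 101.5 TPM, below kidney cortex at 132 TPM. Kcnk1 was at 181 TPM in the glandular part.

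**Figure D5:**
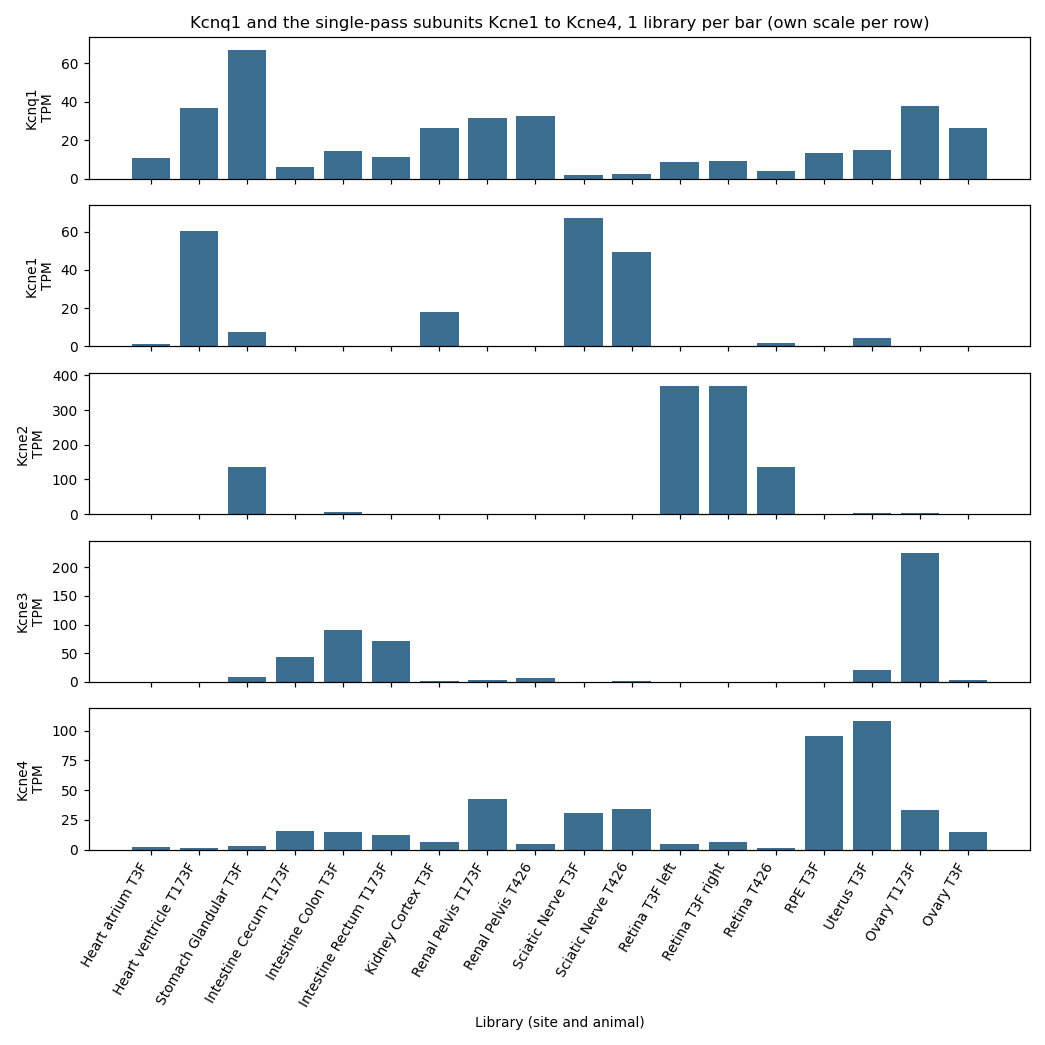
Bars of the level in TPM of Kcnq1 and of the regulatory subunits Kcne1, Kcne2, Kcne3 and Kcne4 in 18 libraries, 1 bar per library and no error. Kcne2 stands beside Kcnq1 in glandular stomach (135.7 TPM) and Kcne1 in the heart ventricle (60.5 TPM), and Kcne3 is higher in colon (91.0 TPM) than in cecum (43.4 TPM).

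In the ovary 5 of 78 members were higher, 6.41% against 3.57% of all genes, and 1 was lower, 1.28% against 0.108%. Most of this rested on 1 animal. Kcne1l, a regulatory subunit also called Kcne5, was at 412 TPM in ovary T173F and 5.50 TPM in T3F (4.66 ± 1.13, adjusted p = 0.0331). Kcne3 was at 224 and 3.60 TPM (4.48 ± 0.76, adjusted p = 0.0039). Without ovary T173F the log2 fold changes were -0.37 for Kcne1l and -0.33 for Kcne3. With animal as a block neither was called (adjusted p = 0.973 and 0.422).

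Kcnk16 was at 36.1 and 0.714 TPM (4.62 ± 1.13, adjusted p = 0.0423) and lost its call in 15 of the 21 fits that leave out a library and under the block (0.785). The member called lower, Kcnj11, was at 0 and 0.367 TPM (-5.64 ± 1.38, adjusted p = 0.0349) and lost its call in 11 of these fits. Kcnk15, a K2P channel related to Kcnk3, was the ovary member kept in every such fit, at 4.47 and 5.64 TPM. The count of 6 was 3 with the animal block, 1 without ovary T173F, and at most 3 without any 1 of femur T3F, hippocampus T3F, hippocampus T426, duodenum T3F, duodenum T426, renal pelvis T173F, muscle T3F, muscle T426 or sciatic nerve T3F. It was 10 without Pancreas T173F.

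Other glands and muscular organs had 1 library a site or both from 1 animal. In the adrenal gland of T173F, sampled under a kidney and an adipose label, Kcnk3, the acid-sensitive leak channel of the cortex, was at 760 and 168 TPM. Kcnn2, a small-conductance calcium-activated channel, was at 289 and 75.3 TPM, Kcnk5 at 280 and 77.4 TPM, Kcnk9 at 178 and 67.6 TPM and Kcnk15 at 40.1 and 16.1 TPM. Kcnj5, which sets the potential of aldosterone-producing cells, was at 30.4 and 8.14 TPM. Adrenal cortex markers summed to 28787 and 6591 TPM, in the same order as most of these members, but Kcng3 was at 21.1 and 23.2 TPM.

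Among smooth-muscle organs, uterus held Kcne4 at 108 TPM and the vascular ATP-sensitive pore Kcnj8 at 65.0 TPM. Kcnk3 and Kcna5, also listed for smooth muscle, were at 2.32 and 5.49 TPM in uterus. Kcne4 was at 7.55 TPM and Kcnj8 at 16.7 TPM in bladder. Smooth-muscle markers summed to 35050 TPM in bladder, against 7723 TPM in uterus. In bladder Kcnk1 was at 212 TPM, Kcnf1 at 80.9 TPM, Kcng1 at 60.3 TPM and Kcnd3 at 57.4 TPM. Inguinal fat held Kcnj8 at 77.2 TPM, its highest value, and brown fat Kcnk3 at 66.0 TPM. Kcnn2 was at 63.6 TPM in Liver T426 and at 64.5 TPM in the library labelled Lung T3F, the pair with hepatocyte markers. The library labelled Liver T3F had Kcnj2 at 291 TPM.

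In the femur 7 of 78 members were higher, 8.97% against 9.72% of all genes, a share close to that of all genes, and 0 were lower by edgeR, against 0.518%. At an unadjusted p below 0.05, 3 were lower, as many as DESeq2 called, while limma called 0. Kcnn4, the calcium-activated channel of red and white blood cells, was at 46.9 and 16.2 TPM (5.25 ± 0.73, adjusted p = 2.34e-04), below duodenum T426. Over the series it was highest in thymus at 231 TPM and was at 76.2 TPM in bone marrow and 34.8 TPM in spleen. Kcnk12, a K2P subunit, was at 21.8 and 10.3 TPM in femur and 22.3 TPM in bone marrow (6.34 ± 0.90, adjusted p = 7.23e-04), and limma did not call it (0.0592).

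Kcnj5 was at 16.3 and 6.49 TPM in femur and 44.3 TPM in bone marrow (4.98 ± 1.07, adjusted p = 0.0112). Its call was lost without femur T3F (0.0577) or T426 (0.0689), in the strict set (0.0779), with DESeq2 (0.13) and with limma (0.124). Kcna7 was at 61.0 TPM in femur T3F and 0.973 TPM in T426, where muscle-fibre markers summed to 13259 and 2100 TPM. Of the 7 higher calls 4 were kept in the strict set, and the part of the germ-cell RNA of femur T426 was not tested. The count was 4 without femur T3F, 4 without T426 and 12 without Pancreas T3F.

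Members known from sperm were measured in 1 testis library, of animal T424 and the shallowest of the series at 678819 counts. Kcnu1, the pH-activated channel of sperm, was at 10.9 TPM there, on 22 expected counts, and its auxiliary subunit Lrrc52 at 143 TPM. Kcnu1 was also at 32.4 TPM in retina T426 and 16.9 TPM in hippocampus T426, against 0.05 and 0.08 TPM in the T3F retinas and 0 in hippocampus T3F. Lrrc52 was at 93.6 and 45.8 TPM in those T426 libraries and at 0 in hippocampus T3F. The highest Kcnu1 value, 33.4 TPM, was in the Harderian gland.

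Kcnk4, a mechanosensitive K2P channel of nodes, and Kcnk7 followed the same libraries in part. Kcnk4 was at 52.8 TPM in testis and 42.9 TPM in retina T426, against 6.49 and 6.05 TPM in the T3F retinas, and at 14.4 TPM in hippocampus T3F and 28.5 TPM in T426. Kcnk7 was at 83.1 TPM in testis and 24.97 TPM in retina T426, against 0.459 and 0 TPM in the T3F retinas. It was at 0 in hippocampus T3F and 10.6 TPM in T426. The germ-cell markers given above were high in the same libraries, and their part in these values was not tested.

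The partner genes were set out beside the pores they serve. Of 22 listed, 21 were in the table and 20 could be tested, and 15 of the 20 differed among the 10 sites, against 41.4% of all genes. In hippocampus 13 of the 20 were higher, against 12.9% of all genes, among them the Kcnd partners Kcnip1, Kcnip2, Kcnip3, Kcnip4, Dpp6 and Dpp10, and Abcc9 was lower. In retina 12 of the 20 were higher, against 17% of all genes, and again Abcc9 was lower. Kcnmb4, the neuronal beta subunit of the large-conductance channel, reached 824 TPM in caudal cortex. Kcnmb1, the smooth-muscle form, was at 221 TPM in bladder, where the pore Kcnma1 was at 4.67 TPM.

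The ATP-sensitive pores lie beside their receptors in the genome, Kcnj8 next to Abcc9 and Kcnj11 next to Abcc8. Across the 59 libraries, on log2(TPM + 1), Kcnj8 and Abcc9 had a Pearson r of 0.816 (Spearman 0.825) and Kcnj11 and Abcc8 of 0.702 (0.701). These are descriptions, since libraries share animals, organs and depth. Other neighbours ranged widely. Kcna1 and Kcna6 had an r of 0.827 and Kcna3 and Kcna2 of 0.734, while Kcna5 and Kcna1 had 0.307, Kcnj2 and Kcnj16 had 0.154 and Kcnj6 and Kcnj15 had -0.341. In pancreas T3F, with beta cell markers of 20225 TPM, Kcnj11 was at 2.02 TPM, Abcc8 at 1.40 TPM and Kcnk16 at 3.32 TPM.

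A last description asked which members belonged mainly to 1 organ, taken as a mean of at least 1 TPM there and at least 4 times every other organ. This held for 20 of 80 members, 25% against 16% of all genes. With the deposited tissue labels in place of site names it held for 15, 18.75% against 15.8%, and 14 of these were among the 20. The adrenal members Kcnk3 and Kcng3 were not among the 15. Brain took 8, among them Kcna2, Kcnc2, Kcnd2, Kcnh4, Kcnj4, Kcnq3 and Kcnv1. Kcnj4 averaged 227 TPM in brain, 32.3 times the next organ. Kidney took Kcnj1 (635 TPM, 18.7 times), Kcnj15 (4.71 times) and Kcnj16 (10.5 times), and eye took Kcnv2 (180 TPM, 38.8 times) and Kcnh6 (7.14 times).

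Kcnj5 qualified in heart (496 TPM, 11.2 times), Kcna7 in muscle (764 TPM, 4.53 times) and Kcne1l in ovary (209 TPM, 9.84 times), while adrenal gland took Kcnk3 (464 TPM, 7.11 times) and Kcng3 (6.65 times). The ovary mean of Kcne1l rests on T173F at 412 TPM, since ovary T3F was at 5.50 TPM, below oesophagus at 21.2 TPM. The remaining 2, Kcna10 in trachea at 101 TPM and Kcnk18 in bladder at 73.3 TPM, each rested on 2 expected counts. Without values under 10 counts the number was 18.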

How the data were processed

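Polyadenylated RNA was measured in 59 libraries, mapped to sites and animals from their labels, with no column left unmapped. The authors deposited 2 tables, of expected counts (estimated read counts per gene) and of TPM, which sums to 1000000 in each library. RSEM and Bowtie 0.12.8 are named in the submitters' processing notes. For the genome build and annotation, neither is given in the sources used here. Counting is not stated to use strand, so overlapping genes may share reads. RefSeq names (assembly mArvNil1.pat.X) matched 79 of the 80 members and served only to find neighbours.

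After rounding to whole numbers, the counts were fitted with edgeR 4.0.16 in R 4.3.3 (TMM scaling, filterByExpr by site, quasi-likelihood F tests, Benjamini-Hochberg over 17564 genes) for 20 libraries of 10 sites, both retinas of T3F summed to 1, with 10 residual degrees of freedom. The hippocampus contrast was also run on simulated counts with known changes. These had the same spread for every gene and no changes at other sites, so they do not show how calls behave in these data. Liver and pancreas stayed in the fit but got no count of their own, since a library of each goes against its label. Alternatives used DESeq2 1.42.0, limma 3.58.1 on log2(TPM + 1), no filter, animal as a block, reduced library sets and each library left out. Animals pair libraries across sites. For the 7 sites with T3F and T426, the deviations of same-animal libraries correlated at 0.0189 to 0.808 over 21 pairs (median 0.126, with 12 over 0.1). Tables and figures used Python 3.11.15 with pandas 2.3.3.

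Members named with a fold change are, at each site, the 3 called higher with the largest change and a site mean of at least 1 TPM, and the 1 called lower with the largest fall. Others are named by level, role or tissue list. Members, lists and tests were chosen with earlier results of these data known. Results of some members are not reported here by name or drawn, but they stay in every count. No sequence is shown.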

Additional observations from a re-analysis of the deposited data

How the results depend on the processing

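Of 864 alternative values for the 32 member and site pairs given with a fold change, 745 kept their direction and call, 117 kept direction but lost the call and 2 turned direction: Kcne1l and Kcne3 in ovary, at -0.37 and -0.33 without ovary T173F and at 5.63 and 5.45 without ovary T3F. Leaving out 1 library at a time (21 fits) gave joint counts of 55 to 68, hippocampus 31 to 50, retina 31 to 42, sciatic nerve 3 to 10, muscle 5 to 15, femur 4 to 12, renal pelvis 3 to 14, duodenum 3 to 9, ovary 1 to 10 and retina against hippocampus 0 to 2. With animal as a replicate block the ovary count moved from 6 to 3 and retina against hippocampus from 1 to 2, and no other count moved by over 1.5 times (joint 60, hippocampus 44, retina 38). DESeq2 gave 22 in muscle, 23 in renal pelvis, 11 in duodenum and 7 in retina against hippocampus. Limma on log2(TPM + 1) gave 1 in femur, 7 in renal pelvis and 12 in retina against hippocampus. Without Liver T3F and Pancreas T173F the counts were 12 in femur, 11 in duodenum, 12 in ovary and 6 in retina against hippocampus, and the strict set gave 17 in muscle and 10 in ovary. The cause was not tested. A ratio of 2 in place of 4 to the next organ gave 43 members in place of 20, 53.75% against 34.0% of all genes. With a pseudocount of 0.1 the median tau was 0.636 for members and 0.365 for all genes. Of 2409 member values at 1 TPM or more, 234 (9.71%) rested on under 10 expected counts, which limits low levels in shallow libraries.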

Other observations

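Levels in TPM and the counts behind them differ by member. Kcna10 was at 0 in 58 libraries and at 101 TPM in trachea on 2 expected counts, and Kcnk18 had 7 expected counts in all libraries together, so neither profile can be read as a tissue pattern.

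The spread between the 2 animals of a site differed by site. The median absolute log2 ratio between animals was 0.326 for members and 0.292 for all genes in hippocampus, and 0.331 and 0.502 in muscle. It was 1.64 and 1.21 in retina, 0.957 and 0.521 in renal pelvis and 1.14 and 0.533 in ovary. In femur it was 1.45 for members and 1.82 for all genes. Over all genes it was 1.92 in both liver and pancreas, where a library of each goes against its label. For members it was 0.659 in liver (8 members) and 1.27 in pancreas (2 members).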
